A study of Mus musculus with 80 samples.

Results

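The livers of female Balb-C mice given PFESA-BP2 at 6.0 mg/kg-day were compared with those of mice given vehicle. PFESA-BP2, called Nafion BP2 in the sample labels, is Nafion byproduct 2, a polyfluoroalkyl ether sulfonic acid formed in the manufacture of a fluoropolymer membrane. The libraries were taken by their labels and no measured value entered the choice: 4 libraries of the 6.0 mg/kg-day group and 4 of the control group, together 8 of the 20 libraries of the study. Treated mice received PFESA-BP2 by gavage once a day for 7 days at 10 to 12 weeks of age, and control mice of the same strain, sex and age received an equal volume of vehicle over the same days. The titles of the control libraries name DMSO, whereas the design text names deionized water, so the vehicle is not settled by the sources used here. The other 12 libraries came from mice given 0.03, 0.3 or 3.0 mg/kg-day. Each library was made from the liver RNA of 1 animal and was sequenced on 4 lanes, and the deposited table holds 1 column per library. Livers had been kept in RNAlater and RNA was extracted 2 to 6 months later.

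The liver detoxifies foreign compounds through oxidising P450 enzymes, conjugating transferases and export pumps, whose genes are switched on by ligand-activated nuclear receptors, chiefly CAR, PXR and PPARα. In rodents, agonists of CAR and PPARα are known in addition to enlarge the liver and to bring resting hepatocytes into division. Hepatocytes also make most plasma proteins, arrange their metabolism along the axis between the portal and the central vein, and in mice express sets of genes that differ between the sexes under growth hormone.

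The deposited table held 22103 rows and expected counts per library that summed to 16747243 to 20398925 in the treated mice and 13086755 to 21466978 in control mice. Levels are given as CPM, counts per 1000000 counts of a library after scaling between libraries by TMM, a trimmed mean of the ratios between libraries. Values of the 4 treated mice are given in the order of libraries 21, 22, 23 and 24, and those of the 4 control mice in the order of libraries 1, 2, 3 and 4. The words rose and fell are kept for differences that passed edgeR's quasi-likelihood test at a Benjamini-Hochberg adjusted p under 0.05 over all 15197 rows with enough counts to test, and each log2 fold change is given with its standard error (SE) or its adjusted p. In bulk tissue, fewer cells of a type and less RNA per cell cannot be told apart.

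Within each dose group 1 library stood apart from the other 3. These were libraries 3, 11, 15, 19 and 23, 1 of them a control mouse and 1 a treated mouse. By library number each was the third of its group, and the labels give this position no meaning. The axis that set them apart held 42.7% of the variance within groups, and 3789 rows were higher and 3830 lower in them than in the other libraries of their groups. These libraries were picked from the same values, so the counts describe the split and are not a separate test of it. The axis crossed the treated and control groups. With a term for these libraries in the fit, 2800 genes rose and 2839 fell, and without them 2699 rose and 2529 fell, against 1707 and 1698 with all libraries. Library 22 was the most extreme treated mouse for 50.6% of the risen and 58% of the fallen genes, and without it 1263 genes rose and 1083 fell. The median displacement of the risen genes from the control mean was 0.78, 1.02, 0.71 and 0.79 on the log2 scale in libraries 21 to 24, and that of the fallen genes was -0.64, -0.90, -0.45 and -0.68.

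At 6.0 mg/kg-day, 3405 of 15197 genes (22.4%) differed from control. Of these, 1707 rose (11.2%) and 1698 fell (11.2%), while the median log2 fold change over all tested genes was -0.02. Large changes were mostly rises: 749 genes rose and 433 fell by at least 2-fold, and 158 rose and 30 fell by at least 8-fold. The 4 treated mice were all above or all below the 4 control mice for 18.5% of genes (9.68% above and 8.86% below), among them 1278 of the risen and 1165 of the fallen ones. Abundant genes were called most often: of the 1320 genes at a mean of 100 CPM or more, 22.4% rose and 18.3% fell, against 6.46% and 5.28% of the 1950 genes under 1 CPM. Among genes at a mean of 10 CPM or more whose groups did not overlap, the 15 rises of largest size held 7 P450 rows (Cyp4a12a, Cyp2c55, Cyp2c53-ps, Cyp1a1, Cyp2b10, Cyp4a14 and Cyp3a11) and 3 genes of cell division (Top2a, Mki67 and Ccna2). The 15 falls of largest size included 4 P450 genes (Cyp2c69, Cyp2c40, Cyp3a16 and Cyp3a41b), the transcription factor genes Cux2 and Egr1 and the organic anion transporter gene Slc22a7.

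**Figure D1:**
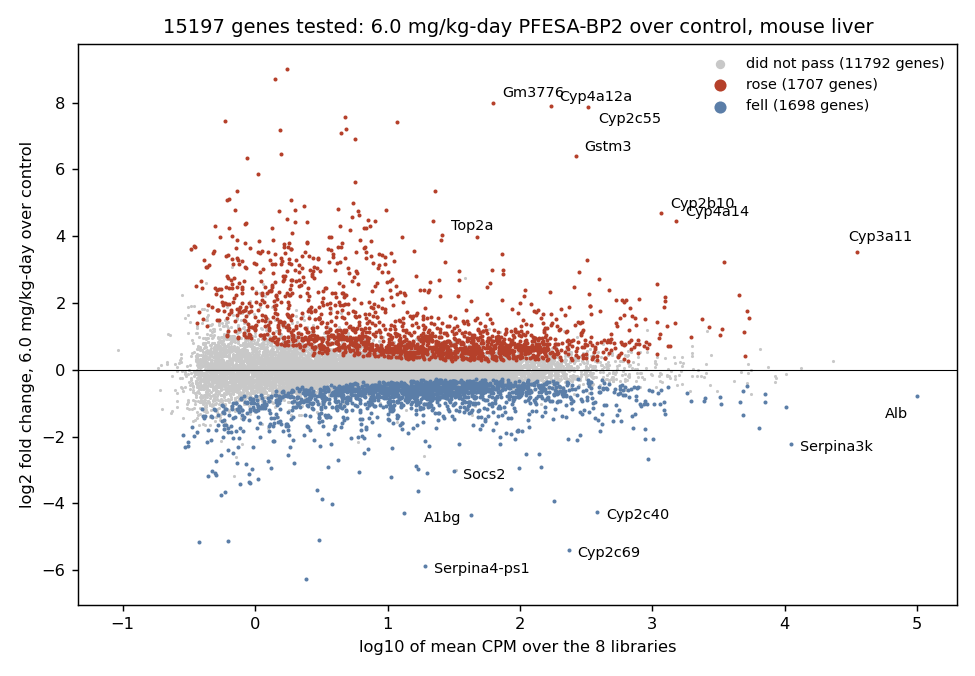
Mean level over the 8 libraries (x axis, log10 of CPM) against the log2 fold change of 6.0 mg/kg-day over control (y axis) for the 15197 tested genes, 1 point each, coloured by whether they rose, fell or did not pass. Labelled genes are described in the text: among abundant genes Cyp4a12a and Cyp2c55 lie near 7.9, whereas Cyp2c69 lies at -5.40 and Alb, the most abundant, at -0.78.

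**Figure D2:**
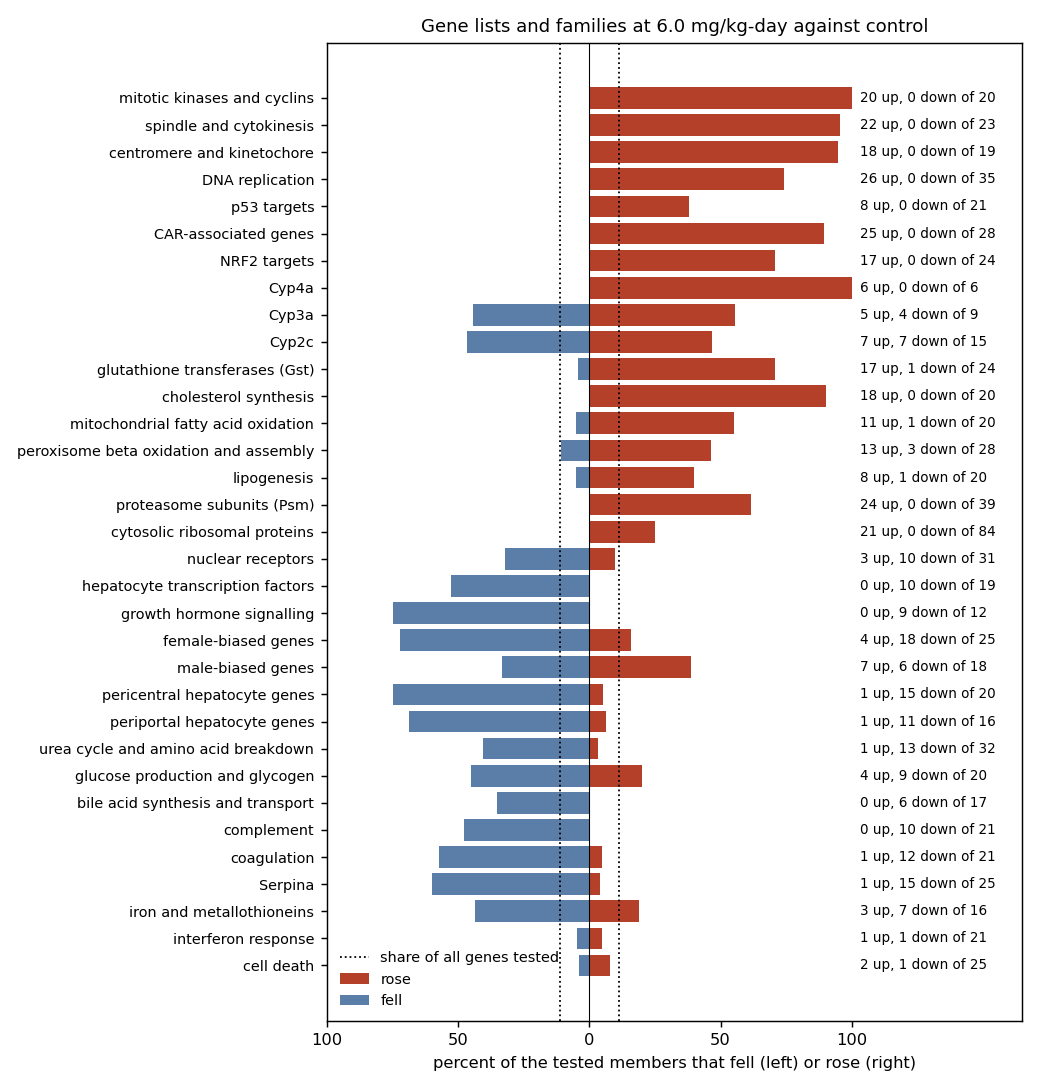
Percent of the tested members of each gene list or family (rows) that rose (bars to the right) or fell (bars to the left) at 6.0 mg/kg-day against control, with the counts beside the bars and the shares over all tested genes as dotted lines. All 20 mitotic kinases and cyclins rose, and 18 of 25 female-biased genes fell.

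The composition of the RNA pool shifted towards P450 transcripts. The rows of the P450 genes together held 11.2, 10.7, 12.6 and 8.92% of all counts in the treated mice, against 3.54, 3.48, 4.42 and 3.85% in control mice. Each treated mouse held more than 2-fold the share of any control mouse, and the means were 10.8 ± 1.52% and 3.82 ± 0.43% (SD, n = 4 each). The exact permutation test (two-sided) gave p = 0.0286, the smallest value 4 against 4 mice allow, and 0.0324 after Benjamini-Hochberg adjustment over 17 such shares. Any full separation of the groups gives this p. The shares are parts of the same total and the lists were chosen with earlier results of these data known. Their p-values are therefore not separate evidence. Without the 10 rows of highest mean count, the difference in the P450 share was 1.49 percentage points in place of 7.02, so that most of it lay in the most abundant rows. Cyp3a11 alone, which encodes the main inducible P450 of the mouse liver, held 6.33 ± 1.27% of all counts in treated mice and 0.557 ± 0.201% in control mice (SD, n = 4 each). By mean share it ranked 2 in treated mice, behind Alb, and 20 in control mice. Alb, which encodes serum albumin, held 7.22 ± 0.939% in treated mice and 12.5 ± 1.89% in control mice.

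Other abundant transcripts changed rank in the same pool. Aldh1a1, a retinaldehyde dehydrogenase, ranked 12 in treated mice and 67 in control mice, and Cyp2c29, an inducible P450, ranked 7 and 35. Downward, Serpina3k, a serine protease inhibitor of plasma, ranked 29 in treated mice and 3 in control mice, Trf (transferrin) 15 and 4, Ahsg (fetuin A) 37 and 7, and Mug1 (murinoglobulin) 39 and 15. The rows of plasma carriers and hormone-binding proteins together held 11.3 ± 1.07% in treated mice and 18.2 ± 1.6% in control mice (SD, n = 4 each; exact permutation p = 0.0286, adjusted 0.0324), with no overlap between the groups. Without the 10 rows of highest mean count that difference was -0.839 in place of -6.89 percentage points, so that it lay mainly in Alb and a few other rows.

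Genes associated with activation of CAR rose almost throughout. Of 28 tested genes known as CAR-associated in mouse liver, 25 rose and none fell, with a median log2 fold change of 1.55, and 24 had every treated mouse above every control mouse. Cyp2b10 (chr7:25897620-25926624; GENCODE M21, GRCm38), the P450 most widely used as a readout of CAR, had 2128, 2175, 2728 and 1957 CPM in treated mice, against 72, 93.6, 64.8 and 117 CPM in control mice. The lowest treated mouse was more than 10-fold above the highest control mouse, and the log2 fold change was 4.69 ± 0.277 (SE; adjusted p = 9.89e-10). Gadd45b, a stress-inducible partner of CAR, had a log2 fold change of 4.78 ± 0.316 (adjusted p = 2.6e-09), and Akr1b7, an aldose reductase-like enzyme, one of 4.46 ± 0.276 (adjusted p = 1.24e-09). The efflux pump gene Abcc4 rose by 2.69, the carboxylesterase gene Ces2a by 3.22 and Aldh1a1 by 2.25 on the log2 scale. The 3 that did not pass were Cyp2b9, Sult1d1 and Abcc2, with log2 fold changes of -0.22, 0.37 and 0.42.

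Cyp3a11 had 72737, 65530, 73735 and 45645 CPM in treated mice, against 4893, 4926, 8371 and 4216 CPM in control mice, with a log2 fold change of 3.52 ± 0.291 (adjusted p = 4.06e-08). All treated mice lay far above all control mice, and library 24 was the lowest of the 4. The Cyp4a genes, whose enzymes hydroxylate the end carbon of fatty acids and which are classical targets of PPARα, all rose: 6 of 6, with a median of 3.62. Cyp4a14 had 2472, 2657, 3333 and 3024 CPM in treated mice, against 83.4, 124, 189 and 134 CPM in control mice (log2 fold change 4.44, adjusted p = 2.25e-08). Cyp4a12a, which in mice is expressed mainly in males, had 229, 276, 553 and 298 CPM in the treated females, against 2.17, 1.91, 0.894 and 0.571 CPM in control females. Its log2 fold change of 7.89 ± 0.482 (adjusted p = 1.11e-09) was the second largest among genes at a mean of 10 CPM or more whose groups did not overlap. The neighbouring copy Cyp4a12b had 794 counts in the treated and 6 in the control mice together, a ratio of CPM of 128 with a 95% exact interval of 58.4 to 349. This interval, like the others given for low counts, covers counting error only.

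Cyp1a1, the P450 that responds to the aryl hydrocarbon receptor, was uneven among the treated mice. It had 13.9, 147, 16.5 and 2.15 CPM in treated mice, against 1.23, 0.731, 0.894 and 1.48 CPM in control mice. Library 22 was far above the other treated mice, library 24 was only just above the control mice, and the groups did not overlap (log2 fold change 5.35 ± 0.857, adjusted p = 0.000115). Without library 22 the log2 fold change was 3.30. Over the P450 genes as a whole, 29 of 71 rose and 22 fell, with a median of 0.14. Among the falls, Cyp2e1, the ethanol-inducible P450, averaged 4816 ± 1026 CPM in treated mice and 9278 ± 830 CPM in control mice (SD, n = 4 each; log2 fold change -0.95, adjusted p = 0.000134).

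Neighbouring copies in the same gene cluster went opposite ways. In the Cyp2c cluster (chr19:39007019-40187333, GRCm38), 8 of 15 tested rows rose and 6 fell. In chromosome order, Cyp2c55, Cyp2c65, Cyp2c66, the pseudogene Cyp2c53-ps and Cyp2c29 all rose, then Cyp2c38, Cyp2c39, Cyp2c68, Cyp2c40 and Cyp2c69 fell with Cyp2c67 among them not passing, and then Cyp2c37, Cyp2c54 and Cyp2c50 rose before Cyp2c70 fell at the end. Cyp2c55 had 596, 574, 690 and 724 CPM in treated mice, against 2.27, 3.54, 1.94 and 3.25 CPM in control mice, a log2 fold change of 7.86 ± 0.334 (adjusted p = 9.44e-12). The next rows of the cluster were nearly silent in control mice: Cyp2c53-ps had 1681 counts in treated mice and 9 in control mice (ratio of CPM 180, 94.8 to 395), and Cyp2c66 had 625 and 4 (ratio 151, 58.6 to 555). In the middle of the same cluster, Cyp2c69 had 17.2, 8.97, 11 and 5.89 CPM in treated mice, against 449, 336, 684 and 347 CPM in control mice (log2 fold change -5.40, adjusted p = 4.06e-08). Cyp2c40, like Cyp2c69 a female-biased P450, averaged 37.9 ± 18.9 CPM in treated mice and 728 ± 169 CPM in control mice (log2 fold change -4.26). The call for Cyp2c38, at a log2 fold change of -0.42, was lost without library 22 or without control library 4.

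The Cyp3a cluster (chr5:145345279-146113287, GRCm38) also held rows of both directions. Of 9 tested rows 4 rose and 4 fell, the fallen ones being Cyp3a16 and the female-specific Cyp3a41a, Cyp3a41b and Cyp3a44. Cyp3a13, which lies outside the cluster on the same chromosome, rose. Within the cluster Cyp3a25 and Cyp3a59 rose by 1.77 and 2.93 on the log2 scale. Cyp3a16 had 16.2, 12.6, 14.7 and 9.7 CPM in treated mice, against 108, 64.9, 278 and 177 CPM in control mice (log2 fold change -3.56, adjusted p = 1.1e-06). No treated mouse reached the lowest control mouse. Members of the Cyp2c, Cyp3a, Cyp4a, Gstm, Sult2a, Mup and Serpina3 families resemble each other closely. The way reads matching several members were shared out is not stated in the sources, so the counts of single members are uncertain.

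**Figure D3:**
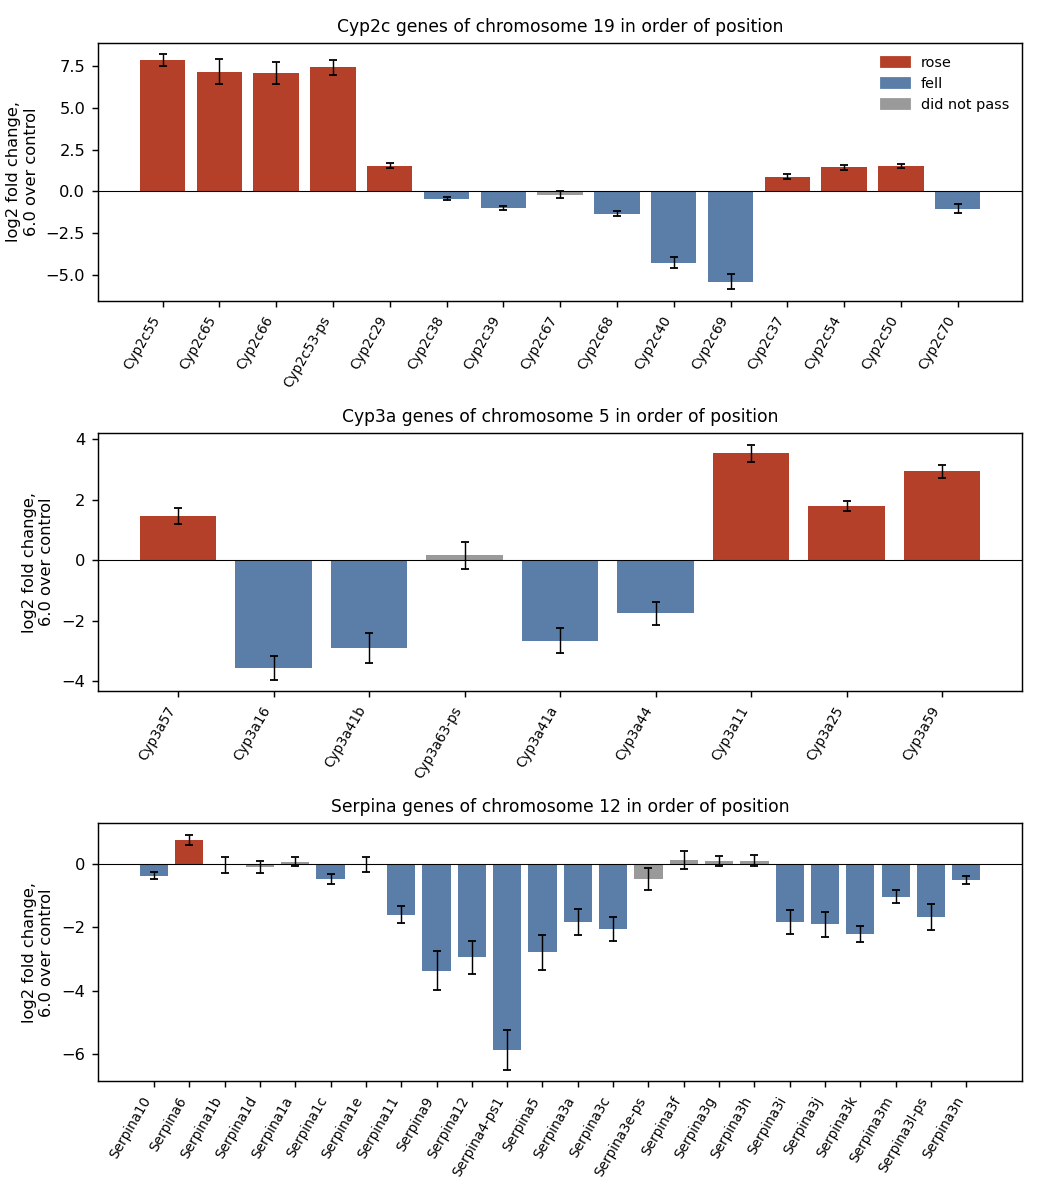
Log2 fold change of 6.0 mg/kg-day over control (bars, y axis; error bars, SE) for the tested rows of the Cyp2c, Cyp3a and Serpina clusters in chromosome order (x axis), coloured by whether they rose, fell or did not pass. In the Cyp2c and Cyp3a clusters rises and falls stand beside each other, whereas in the Serpina cluster 15 of 24 rows fell and 1 rose.

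Many conjugating enzymes rose. Among glutathione S-transferases 17 of 24 rose and 1, Gsto2, fell, with a median of 0.98. The call for Gsto2 was lost in 6 of 8 omissions of a single library, without the low-count filter and in a fit of the 8 libraries alone. Gstm3, a mu class transferase, had 398, 599, 503 and 581 CPM in treated mice, against 8.34, 6.02, 4.77 and 5.31 CPM in control mice (log2 fold change 6.40 ± 0.348, adjusted p = 4.98e-10), and the groups were widely separated. Gm3776, a predicted gene, averaged 125 ± 65.3 CPM in treated mice and 0.452 ± 0.356 CPM in control mice, the rise of largest size among genes at a mean of 10 CPM or more whose groups did not overlap (log2 fold change 7.99). The sulfotransferases rose in 11 of 17 cases and fell in 3. In the Sult2a cluster on chromosome 7, 8 of 9 rows rose and Sult2a8 fell by 0.92 on the log2 scale. Glucuronosyltransferases rose in 7 of 17 cases and fell in 4, and of 15 carboxylesterases 7 rose and 1, Ces3b, fell (log2 fold change -2.09). Enzymes that build heme and pass electrons to P450 rose in 6 of 13 cases, with Alas1, the rate-limiting enzyme of heme synthesis, at 2.48 ± 0.317 (adjusted p = 9.28e-06) and Por, the P450 reductase, at 1.56 ± 0.26 (adjusted p = 0.000178).

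Genes under NRF2, the transcription factor that answers electrophiles and oxidants through the antioxidant response element (ARE), rose in 17 of 24 cases with no falls and a median of 0.95. The promoter of Ugdh, which makes the sugar donor for glucuronidation, is shown because Ugdh had the smallest adjusted p among risen members whose window held an ARE match. It covers the 250 bases before the start of the gene on the minus strand (chr5:65435843-65436092, RefSeq, GRCm38.p6), with matches to the ARE in capitals:
Ugdh: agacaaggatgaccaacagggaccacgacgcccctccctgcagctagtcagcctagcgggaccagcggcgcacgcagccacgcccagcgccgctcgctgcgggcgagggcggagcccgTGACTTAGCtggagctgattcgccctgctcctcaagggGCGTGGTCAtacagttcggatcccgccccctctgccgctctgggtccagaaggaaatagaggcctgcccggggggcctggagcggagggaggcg
The letters TGACNNNGC, searched on both strands in the 250 bases before the start, were found at -132 and, in the reverse orientation, at -94, where a position is that of the leftmost base and -1 is the base before the start. They were present in 5 of 20 genes of the list with a window (25%), in 13.9% of tested genes with one and in 11.5% of all 27025 genes with one. In these shares a gene counted if any of its windows held a match. Ugdh had 577, 917, 723 and 534 CPM in treated mice, against 104, 111, 84.7 and 119 CPM in control mice. All 4 treated mice were above all control mice, and the log2 fold change was 2.71 ± 0.193 (adjusted p = 6.58e-09). Srxn1, which reduces oxidised peroxiredoxin, rose by 2.09 and Ephx1, the microsomal epoxide hydrolase, by 2.09 on the log2 scale. Gstp1, a glutathione S-transferase of the pi class, averaged 194 ± 42.9 CPM in treated mice and 49.3 ± 5.16 CPM in control mice (log2 fold change 1.98). The 7 that did not pass were Hmox1, Gclm, G6pdx, Osgin1, Fth1, Taldo1 and Txn1, with Hmox1 at 0.32 and Gclm at -0.18.

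Genes of the cell cycle rose, with the largest medians among those of mitosis. All 20 mitotic kinases and cyclins rose (median 3.38), as did 22 of 23 spindle and cytokinesis genes (median 3.13), 18 of 19 centromere and kinetochore genes (median 3.18) and 9 of 9 genes of chromosome condensation (median 2.71). Cit among the spindle genes and Cenpm among the centromere genes did not pass. Genes of DNA replication, which act earlier in the cycle, rose in 26 of 35 cases with a median of 1.18, and genes of homologous recombination and replication stress in 14 of 19 with a median of 1.49. No gene of these 6 lists fell. The low-count filter worked by dose group. A member with few counts in control mice could thus be tested through its level in dosed mice. Cdc25c, for example, averaged 0.0697 CPM in control mice and 1.65 CPM in treated mice, and Orc1 and Ska1 were below the filter. The counts and medians cover only members that passed it. Without library 22, the counts for mitotic kinases, spindle, centromere and DNA replication were 19, 20, 18 and 24. Which cells of the liver carried these transcripts cannot be told from bulk RNA.

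The promoters of Cdc20, which activates the ubiquitin ligase that triggers anaphase, and of Mcm5, a subunit of the replicative helicase, are shown because they had the smallest adjusted p among risen genes of their lists whose windows held a motif searched for. Capitals mark, in Cdc20, the cell cycle homology region (CHR, TTTGAA) and the CCAAT box, and, in Mcm5, an E2F site. Each covers the 250 bases before the start (Cdc20 on the minus strand, chr4:118437344-118437593, and Mcm5 on the plus strand, chr8:75109259-75109508, RefSeq, GRCm38.p6):
Cdc20: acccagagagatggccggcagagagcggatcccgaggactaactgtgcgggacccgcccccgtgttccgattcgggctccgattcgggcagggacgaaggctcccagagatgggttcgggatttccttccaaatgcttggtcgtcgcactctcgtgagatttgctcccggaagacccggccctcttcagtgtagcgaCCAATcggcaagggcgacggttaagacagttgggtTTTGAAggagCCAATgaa
Mcm5: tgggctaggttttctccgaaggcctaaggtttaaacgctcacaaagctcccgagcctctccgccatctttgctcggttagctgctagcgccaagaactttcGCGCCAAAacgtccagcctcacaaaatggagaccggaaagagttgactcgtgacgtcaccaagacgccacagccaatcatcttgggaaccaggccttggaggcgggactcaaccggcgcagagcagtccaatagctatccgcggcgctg
In Cdc20 the CHR lay at -18 and the CCAAT letters at -53 and -8, and in Mcm5 the E2F letters GCGCCAAA, the reverse complement of TTTGGCGC, lay at -149. The matches did not overlap. On both strands of such windows, the CHR was found in 6 of 17 mitotic kinases and cyclins (35.3%) and 9 of 21 spindle genes (42.9%). It was found in 13.5% of tested genes with a window and 18.3% of all genes with one. The CCAAT letters were found in 15 of 17 (88.2%) and 14 of 21 (66.7%), against 40.7% and 37.5%. For DNA replication, the E2F letters TTTCCCGC or TTTGGCGC were found in 6 of 28 genes with a window (21.4%), against 2.78% and 1.51%. A match describes these letters in this window and is not evidence of a bound factor.

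Cdc20 had 6.9, 8.42, 5.82 and 11.6 CPM in treated mice, against 0.494, 0.225, 0.224 and 0.171 CPM in control mice. The treated mice were all many-fold above the control mice, and the log2 fold change was 4.80 ± 0.301 (adjusted p = 1.45e-09). Top2a, the topoisomerase that untangles replicated chromosomes, had 28.3, 106, 32.8 and 27.4 CPM in treated mice, against 3.31, 2.81, 2.98 and 2.74 CPM in control mice (log2 fold change 4.03, adjusted p = 2.24e-07), with library 22 the highest. Without library 22 its log2 fold change was 3.31. Mki67, which encodes the proliferation antigen Ki-67, averaged 29 ± 12.7 CPM in treated mice and 2.45 ± 0.195 CPM in control mice (log2 fold change 3.56), and Ccna2, cyclin A, 19.6 ± 7.39 CPM and 1.73 ± 0.259 CPM (log2 fold change 3.50). Mcm5 averaged 18 ± 4.45 CPM in treated mice and 2.85 ± 0.495 CPM in control mice, a smaller log2 fold change of 2.65 ± 0.215 (adjusted p = 3.53e-08).

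Genes that govern entry into the cycle were mixed: 11 of 25 rose and 3 fell (median 0.39). The cyclin E gene Ccne1 rose by 2.07, the growth factor-responsive transcription factor Myc by 2.59 and Foxm1, which drives mitotic transcription, by 2.69 on the log2 scale. The D-type cyclin gene Ccnd1 had a log2 fold change of -0.04 (adjusted p = 0.923). Ccnd2 fell by 0.89, the cell cycle inhibitor gene Cdkn1c by 1.10 and the pocket protein gene Rbl2 by 0.56. The call for Rbl2 was lost in a fit of the 8 libraries alone. Targets of p53 rose in 8 of 21 cases and none fell, and 5 rose without library 21, without library 22 or without control library 4. Of 25 cell death genes 2 rose and 1 fell (median 0.02), against 11.2% risen and 11.2% fallen over all tested genes.

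**Figure D4:**
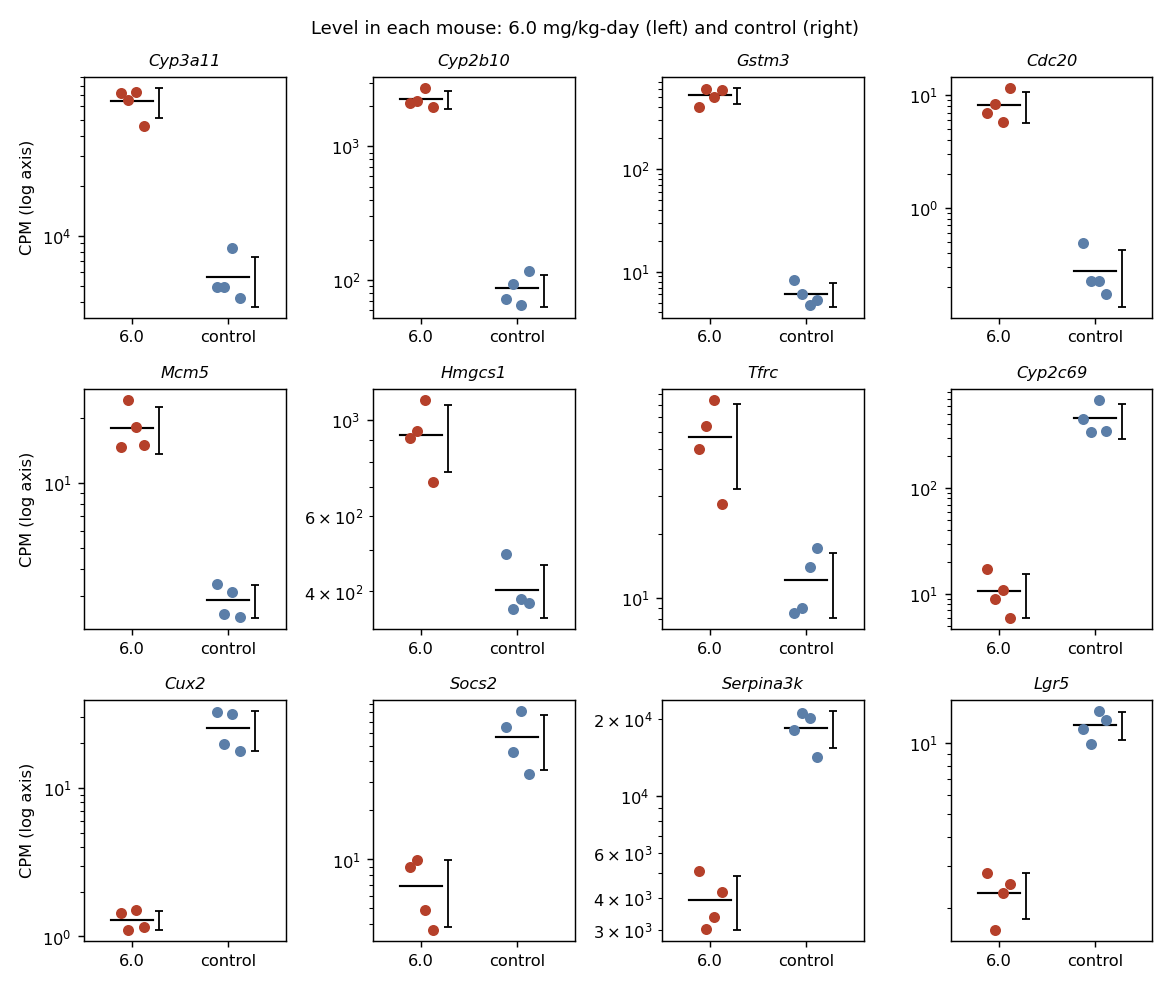
Level in each mouse (points, CPM, log axis) of 12 genes at 6.0 mg/kg-day (left) and in control mice (right), with the mean (horizontal bar) and SD (error bar) of 4 mice. The 7 genes from Cyp3a11 to Tfrc were higher and the 5 from Cyp2c69 to Lgr5 lower in the treated mice. The groups do not overlap in any of the 12 panels, as for 18.5% of all tested genes. The panels were picked with the results known, several of them by a rule that required separate groups, so this separation is not separate evidence.

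Genes of cholesterol synthesis rose in 18 of 20 cases with a median of 1.03, and Tm7sf2 and Ebp did not pass. The promoter of Hmgcs1, which condenses the first intermediate of the pathway, is shown because it carries the sterol response element (SRE) letters, in capitals, and had the smallest adjusted p of the members that do. It covers the 250 bases before the start on the plus strand (chr13:119690101-119690350, RefSeq, GRCm38.p6):
Hmgcs1: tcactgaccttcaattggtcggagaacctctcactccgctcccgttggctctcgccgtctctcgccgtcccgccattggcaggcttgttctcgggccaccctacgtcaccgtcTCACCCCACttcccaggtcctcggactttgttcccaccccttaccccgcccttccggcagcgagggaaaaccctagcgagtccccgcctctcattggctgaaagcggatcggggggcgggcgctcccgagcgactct
The letters TCACNCCAC, searched on both strands, lay at -137 in Hmgcs1, the only 1 of 15 genes of the list with a window to hold them (6.67%). They were held by 1.32% of tested genes with a window and 1.22% of all genes with one. Hmgcs1 had 910, 945, 1117 and 718 CPM in treated mice, against 489, 365, 385 and 376 CPM in control mice (log2 fold change 1.19 ± 0.183, adjusted p = 7.3e-05). All treated mice were above all control mice. Of 11 genes of sterol sensing and efflux 2 rose, Insig2 by 1.86 and Insig1 by 0.90, and 4 fell. Over all tested genes 11.2% rose and 11.2% fell. Among the fallen, Srebf2 at -0.35 lost its call in 7 omissions of a single library. The cholesterol exporters Abcg5 and Abcg8 fell by 0.44 and 0.78, and the call for Abcg5 was lost in a fit of the 8 libraries alone. In bile acid synthesis and transport none of 17 rose and 6 fell. Cyp7a1, the rate-limiting enzyme of bile acid synthesis, averaged 24.8 ± 6.68 CPM in treated mice and 77.9 ± 29.4 CPM in control mice (SD, n = 4 each; log2 fold change -1.65, adjusted p = 0.00186).

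Genes that burn fatty acids rose in part. In peroxisomal beta oxidation and peroxisome assembly 13 of 28 rose and 3 fell, with Acaa1b, a thiolase, at 2.07 and Ehhadh, the bifunctional enzyme, at 1.62. In mitochondrial fatty acid oxidation 11 of 20 rose and 1 fell. The muscle-type carnitine transferase gene Cpt1b rose by 2.30, whereas the liver-type Cpt1a fell by 0.59. Their mean levels changed by 5.02 and -127 CPM. The call for Cpt1a was lost in a fit of the 8 libraries alone. Of the 5 ketogenesis genes 1 rose, against 11.2% of all tested genes. Vnn1, which makes pantothenic acid and cysteamine and is a PPARα target, averaged 135 ± 7.46 CPM in treated mice and 38 ± 8.65 CPM in control mice (log2 fold change 1.83). Fatty acid uptake and lipid droplet genes rose in 10 of 26 cases and fell in 3. Among the risen ones were Fitm1, which promotes droplet formation, at 3.81, Mogat1, a monoacylglycerol acyltransferase, at 3.05, the droplet gene Cidec at 2.09 and the scavenger receptor gene Cd36 at 1.83. In lipogenesis 8 of 20 rose and 1 fell. The fallen gene was Srebf1, which encodes a lipogenic transcription factor, at -0.72 (adjusted p = 0.0147), a call lost without library 21 and in a fit of the 8 libraries alone. The risen ones included Scd1, the stearoyl desaturase, which averaged 4648 ± 1442 CPM in treated mice and 1996 ± 615 CPM in control mice (log2 fold change 1.22), Elovl6 at 1.79 and Pnpla3 at 2.23.

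Genes of growth hormone signalling fell at most of its steps: 9 of 12 fell, none rose, and the median was -0.98. Ghr, the receptor, averaged 239 ± 41.3 CPM in treated mice and 477 ± 98.9 CPM in control mice (log2 fold change -1.0, adjusted p = 0.000187). Socs2, a feedback inhibitor induced by the receptor, had 8.95, 9.88, 4.9 and 3.69 CPM in treated mice, against 65.3, 45.9, 81.4 and 33.4 CPM in control mice, and its log2 fold change was -3.04 ± 0.365 (adjusted p = 4.23e-06). Igf1, the main circulating growth factor, had 466, 290, 297 and 274 CPM in treated mice, against 1111, 974, 1343 and 993 CPM in control mice (log2 fold change -1.74 ± 0.167, adjusted p = 2.74e-07). For both genes the 4 treated mice lay below all 4 control mice. Igfals, which stabilises Igf1 in plasma, fell by 1.83 and the prolactin receptor gene Prlr by 1.51 on the log2 scale.

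Genes expressed more in female than in male mouse liver mostly fell in these females: 18 of 25 fell, 4 rose, and the median was -1.43. The 4 that rose were Cyp2b13, Sult2a1, Sult2a2 and Hao2. Cux2, a female-biased transcription factor, had 1.43, 1.11, 1.5 and 1.16 CPM in treated mice, against 32.2, 19.8, 31.1 and 17.6 CPM in control mice (log2 fold change -4.28 ± 0.437, adjusted p = 5.92e-07). The treated mice were all below the control mice. A1bg, a plasma glycoprotein gene, averaged 4.02 ± 2.86 CPM in treated mice and 81.1 ± 21.9 CPM in control mice (log2 fold change -4.34). Among male-biased genes 7 of 18 rose and 6 fell, with a median of -0.13. Among the major urinary protein genes, whose products carry pheromones, 4 of 20 rose and none fell, but the number ranged from 1 to 7 when single libraries were left out, being 1 without library 24, 2 without library 21 or control library 4, and 7 without library 23. Their summed share was 1.27 ± 0.466% in treated mice and 0.793 ± 0.252% in control mice (SD, n = 4 each; exact permutation p = 0.143).

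Hepatocyte genes that mark either end of the axis from portal to central vein mostly fell. Of 20 pericentral genes 15 fell and 1, Cyp1a2, rose (median -1.0), and of 16 periportal genes 11 fell and 1, Hsd17b13, rose (median -0.82). The rise of Cyp1a2, at 0.90, was lost without library 22, without control library 2 or without control library 3. Lgr5, a receptor that strengthens Wnt signalling around the central vein, had 2.8, 1.61, 2.3 and 2.53 CPM in treated mice, against 11.4, 9.84, 13.6 and 12.5 CPM in control mice (log2 fold change -2.36 ± 0.236, adjusted p = 4.71e-07). Glul, the glutamine synthetase of the innermost pericentral cells, averaged 258 ± 82.7 CPM in treated mice and 741 ± 130 CPM in control mice (log2 fold change -1.52), and Axin2, a Wnt target, fell by 1.54 on the log2 scale. Slc1a2, a glutamate transporter of pericentral cells, fell by 2.53 and Gulo, the last enzyme of vitamin C synthesis, by 1.96. On the periportal side, Gls2, the liver glutaminase, fell by 1.26. Urea cycle and amino acid breakdown genes fell in 13 of 32 cases and rose in 1, with 8 fallen without control library 4. Glud1, the mitochondrial glutamate dehydrogenase, averaged 751 ± 84.5 CPM in treated mice and 1509 ± 107 CPM in control mice (SD, n = 4 each; log2 fold change -1.01, adjusted p = 1.26e-06), and Mat1a, which makes S-adenosylmethionine, 2188 ± 289 CPM and 4445 ± 748 CPM (log2 fold change -1.02).

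In glucose metabolism 9 of 20 genes fell and 4 rose. Pck1, the enzyme that commits carbon to gluconeogenesis, had 154, 142, 214 and 189 CPM in treated mice, against 606, 636, 575 and 674 CPM in control mice (log2 fold change -1.83, adjusted p = 2.84e-06). All treated mice were below all control mice. G6pc, which releases free glucose, fell by 1.26, and Igfbp1, an insulin-repressed binding protein, by 1.42. Ppp1r3g, a glycogen-targeting phosphatase subunit, rose by 2.31 on the log2 scale. The glycogen-targeting subunit gene Ppp1r3c fell by 1.25.

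Secreted proteins of plasma fell more often than they rose. Coagulation genes fell in 12 of 21 cases and rose in 1 (median -0.61), and complement genes fell in 10 of 21 and none rose (median -0.53). Without library 22 these falls numbered 9 and 8, and in a fit of the 8 libraries alone 7 and 7. Without the libraries that stood apart they numbered 16 and 12. The Serpina family of protease inhibitors fell in 15 of 25 cases and rose in 1 (median -0.50). In the Serpina cluster on chromosome 12 (chr12:103614786-104414329, GRCm38), the single rise was that of Serpina6, which carries corticosteroids in plasma, by 0.77. Serpina3k, a kallikrein-binding serpin, had 5123, 3031, 3395 and 4221 CPM in treated mice, against 18038, 21023, 20183 and 14215 CPM in control mice (log2 fold change -2.22, adjusted p = 2.05e-06). Serpina4-ps1, an annotated pseudogene, averaged 0.628 ± 0.239 CPM in treated mice and 37.5 ± 22 CPM in control mice, the fall of largest size among genes at a mean of 10 CPM or more whose groups did not overlap (log2 fold change -5.88). C9, the last component of the complement pore, fell by 1.84 and F11, coagulation factor XI, by 1.51 on the log2 scale. Ahsg averaged 2934 ± 880 CPM in treated mice and 9790 ± 2766 CPM in control mice (log2 fold change -1.74), and Alb had a log2 fold change of -0.78 (adjusted p = 0.00387). Of 17 acute phase genes 3 rose and 5 fell, against 11.2% risen and 11.2% fallen over all tested genes. Orm2 and Orm3, which encode orosomucoids, rose by 1.86 and 2.27, whereas Hamp fell. The summed level of 8 hepatocyte markers, all of them plasma protein genes, was also lower in every treated mouse. Most of this sum was Alb, and its part in these results was not tested.

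Iron handling and secreted regulators changed in both directions. Of 16 iron and metallothionein genes 7 fell and 3 rose. Hamp, which encodes the iron hormone hepcidin, fell by 1.38 and Trf by 1.11, whereas Tfrc, the transferrin receptor, had 49.9, 63.5, 84.7 and 27.5 CPM in treated mice, against 8.54, 9, 13.9 and 17.1 CPM in control mice (log2 fold change 2.22, adjusted p = 5.8e-05). Library 24 was the lowest treated mouse and still above every control mouse. Among 25 secreted regulators made by the liver 9 fell and 1 rose. The riser was Gdf15, a stress hormone that lowers food intake, at 2.72. Enho, which encodes the peptide adropin, had 4.97, 4.28, 2.42 and 4.9 CPM in treated mice, against 46, 49.1, 26.5 and 19.2 CPM in control mice (log2 fold change -3.09, adjusted p = 7.47e-06). The treated mice lay below all control mice.

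Among the nuclear receptor, hepatocyte factor and clock genes, falls outnumbered rises. Of 31 nuclear receptor genes 10 fell and 3 rose (median -0.31). Nr1i3, which encodes CAR itself, fell by 0.92 and Ppara by 1.07, whereas Nr1i2, which encodes PXR, rose by 0.60 on the log2 scale. Esr1, the oestrogen receptor gene, averaged 27.9 ± 7.84 CPM in treated mice and 74.1 ± 17.6 CPM in control mice (log2 fold change -1.41). Of 19 hepatocyte transcription factors 10 fell and none rose (median -0.54). Both counts depended on library 22, without which 6 nuclear receptors and 4 hepatocyte factors fell. Of 17 circadian clock genes 6 fell and none rose. Egr1, an immediate early gene, averaged 2.49 ± 0.568 CPM in treated mice and 31.2 ± 20.1 CPM in control mice (log2 fold change -3.64).

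Proteasome subunit genes rose in 24 of 39 cases with none fallen and a median of 0.55. The immunoproteasome genes Psmb8, Psmb9 and Psmb10 were among those that did not pass. The count of rises was 17 without library 22, 12 in a fit of the 8 libraries alone and 32 without the libraries that stood apart. The share of proteasome subunit genes in all counts was 0.359 ± 0.0374% in treated mice and 0.243 ± 0.00986% in control mice (SD, n = 4 each; exact permutation p = 0.0286, adjusted 0.0324). Of 84 ribosomal protein genes 21 rose and 63 did not pass (median of all 84, 0.62), and the count of rises was 13 without library 22, 48 without library 23 and 62 without the libraries that stood apart. Their share, 0.385 ± 0.112% in treated mice and 0.247 ± 0.0438% in control mice (SD, n = 4 each), gave an exact permutation p of 0.0857. By annotated type, 129 of 1071 processed pseudogenes rose and 15 fell, against 1446 risen and 1522 fallen of 12384 protein-coding genes. Of 234 lincRNA genes 11 rose and 45 fell. Reads of a processed pseudogene and of its parent gene can be alike, and how they were shared out is not stated in the sources.

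Hepatocyte markers were lower in the treated mice, lymphocyte markers were high in 1 of them, and neutrophil and monocyte markers were higher in all 4 by their sum. Of 8 hepatocyte markers 5 fell and none rose, with a summed level of 87561 to 118434 CPM in treated mice and 143449 to 191334 CPM in control mice. The count was 3 without control library 2. Alb made up most of the summed level, holding 7.22 ± 0.939% of all counts in treated mice and 12.5 ± 1.89% in control mice (SD, n = 4 each). The sum thus mainly repeats the result for Alb. Kupffer cell markers summed to 255 to 566 CPM in treated mice and 329 to 401 CPM in control mice, with 1 of 11 fallen, and sinusoidal endothelial markers to 257 to 302 CPM and 295 to 326 CPM, with 2 of 11 risen and 3 fallen. Stellate cell markers summed to 220 to 409 CPM in treated mice and 340 to 377 CPM in control mice, with 3 of 11 fallen, a count that was 1 without library 22 and 5 without library 21. T and NK cell markers summed to 10.3, 174, 17.3 and 5.89 CPM in treated mice and to 8.62 to 11.6 CPM in control mice, so that 1 mouse carried the difference: 3 of 8 rose with all libraries and 0 without library 22. Lck, a kinase of T cells, had 1.68, 87.7, 6.28 and 1.21 CPM in treated mice, against 1.63, 2.53, 0.82 and 1.03 CPM in control mice, and without library 22 its log2 fold change was 1.01 and did not pass. Neutrophil and monocyte markers summed to 12.6, 30, 12.2 and 9.14 CPM in treated mice, against 6.37, 5.45, 7.08 and 5.71 CPM in control mice, with no overlap between the groups, and 1 of 5 tested rose. Of 6 B and plasma cell markers none passed, with sums of 16.1 to 40.7 CPM in treated mice and 16.2 to 33.9 CPM in control mice. Erythroid markers summed to 263 to 579 CPM in treated mice and 528 to 965 CPM in control mice, with 1 of 5 risen and 1 fallen. Both tested mesothelial markers rose, with a summed level of 1.56 to 7.15 CPM in treated mice and 0.799 to 1.57 CPM in control mice. None of the defining markers of these types had a mean of 0 CPM over the 4 treated mice, and zeros in single mice were not counted. The part of these cells in the other results was not tested, beyond the counts without library 22. Of 15 inflammation genes 2 rose and 3 fell, and of 21 interferon response genes 1 rose and 1 fell. Over all tested genes 11.2% rose and 11.2% fell.

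The mice given 3.0 mg/kg-day allowed a direct test between the highest doses. Between 6.0 and 3.0 mg/kg-day 318 genes (2.09%) differed, 157 higher (1.03%) and 161 lower (1.06%) at 6.0, and 315 of them also differed from control in the same direction. The other 3090 of the 3405 genes called against control did not pass the test of the difference between the doses. With the fit restricted to the 8 libraries of these 2 doses none passed, 1575 having an unadjusted p under 0.05, whereas DESeq2 called 658 and limma-voom 367. Cyp4a12a averaged 339 ± 146 CPM at 6.0 and 43.9 ± 22.1 CPM at 3.0 mg/kg-day (SD, n = 4 each), a log2 fold change of 2.95 ± 0.367 (adjusted p = 0.000624). Top2a averaged 48.5 ± 38.1 CPM at 6.0 and 17.6 ± 4.84 CPM at 3.0 mg/kg-day (log2 fold change 1.46, adjusted p = 0.0243), and Gstm3 520 ± 91.5 CPM and 190 ± 92.7 CPM (log2 fold change 1.46, adjusted p = 0.00722). Without library 22 the log2 fold change of Top2a between the doses was 0.74 (adjusted p = 0.084), and its call was also lost without library 17 or without library 18. Cyp2c69 was lower at 6.0, averaging 10.8 ± 4.76 CPM at 6.0 and 48.3 ± 23.1 CPM at 3.0 mg/kg-day (log2 fold change -2.17).

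By gene group, the members that passed the test between 6.0 and 3.0 mg/kg-day ranged from none to 4 of 6, against 2.09% of all genes. A member that did not pass is not shown to be equal at these doses. Of the 20 mitotic kinases and cyclins 5 were higher at 6.0 (median 0.88), of the 24 NRF2 targets 6 (median 0.57), of the 24 glutathione S-transferases 8 (median 0.43) and of the 6 Cyp4a genes 4 (median 1.27). Of 25 female-biased genes 9 were lower at 6.0 (median -0.61) and of 12 growth hormone signalling genes 4 (median -0.48). None of the 20 cholesterol synthesis genes and none of the 9 Cyp3a genes passed this test, which only 2.09% of all genes passed, and their medians were 0.20 and 0.22. Cyp3a11 averaged 64412 ± 13034 CPM at 6.0 and 38503 ± 12613 CPM at 3.0 mg/kg-day (log2 fold change 0.74 ± 0.265, adjusted p = 0.164).

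Set side by side, the doses gave the following log2 fold changes over the same control mice, which all 4 contrasts share. Genes that passed numbered 0 (0%) at 0.03 mg/kg-day by edgeR's test, 565 having an unadjusted p under 0.05, 44 (0.29%) at 0.3, 701 (4.61%) at 3.0 and 3405 (22.4%) at 6.0. Values follow from the lowest to the highest dose. Cyp2b10 had log2 fold changes of 1.22, 2.74, 4.19 and 4.69, and Cyp3a11 of 0.29, 1.08, 2.78 and 3.52. Mki67 had -0.30, 0.33, 2.57 and 3.56, Ugdh 0.26, 0.65, 1.41 and 2.71, and Hmgcs1 -0.34, 0.30, 0.83 and 1.19. Of the falling genes, Socs2 had -1.51, -2.0, -2.62 and -3.04, and Cyp2c69 -1.14, -2.49, -3.23 and -5.40. At 3.0 mg/kg-day, where 3.18% of all genes rose, 18 of 20 mitotic kinases and cyclins and 23 of 28 CAR-associated genes had also risen over control, against 6 of 24 NRF2 targets and 9 of 20 cholesterol synthesis genes.

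**Figure D5:**
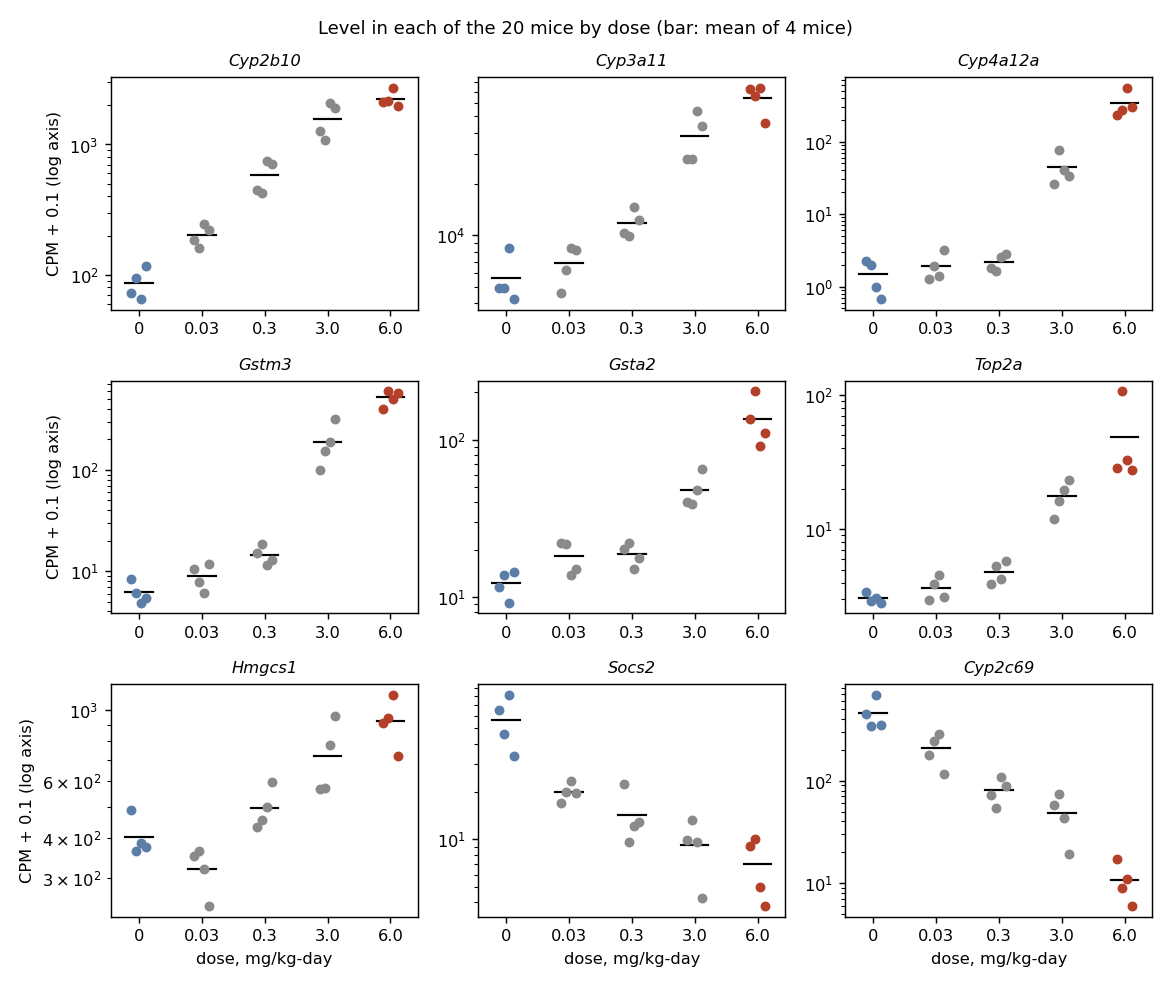
Level in each of the 20 mice (points, CPM with 0.1 added, log axis) of 9 genes by dose (x axis, mg/kg-day, control as 0), with horizontal bars at the means of 4 mice. Cyp2b10 lies above all control mice from 0.03 mg/kg-day, Cyp3a11, Gstm3, Gsta2 and Top2a from 0.3, and Cyp4a12a and Hmgcs1 from 3.0. Socs2 and Cyp2c69 lie below all control mice from 0.03 mg/kg-day. Cyp4a12a and Cyp2c69 lie farther from the control mice at 6.0 than at 3.0 mg/kg-day, and 1 mouse at 6.0 stands above the others for Top2a.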

How the data were processed

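The values are expected counts per gene and library, deposited by the authors in 1 table. Per the labels' protocols RNA was run on an Illumina NexSeq 500 system at a core facility, and per the submitters' processing notes the tools and build were Partek and GRCm38.p5. The sources used here do not give the aligner, the annotation, strand handling or how reads were shared between similar genes. Only 59.2% of the deposited expected counts were whole numbers, so values were rounded before testing. Of 22103 rows, 15197 passed edgeR's filterByExpr by dose group. Counts were scaled by TMM and tested with edgeR 4.0.16 (R 4.3.3; quasi-likelihood F test, SE from the log2 fold change and F) in 1 fit of all 20 libraries with dose group as the only term, which gave a common biological coefficient of variation of 0.219. The table gave each mouse as 1 column, so the 80 lane samples are 20 replicates. Shares were tested by exact permutation.

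Members and lists were chosen with earlier results of these data known. Named genes were the 15 largest rises and falls among called genes at 10 CPM or more with separate groups, the 10 largest gains and losses of CPM, the 6 smallest adjusted p in each direction per list, fixed sentinel genes, the 10 largest rises and falls between 6.0 and 3.0 mg/kg-day and the 5 most uneven genes. For the largest rises and falls, separation of the groups was thus a condition of being named. List members outside these sets are named only to account for the rest.

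Alternatives were RLE factors, no low-count filter, DESeq2 1.42.0, limma-voom (limma 3.58.1), a fit of the 8 libraries alone, a term for or removal of the libraries that stood apart, leaving out each library, and shares without the 10 most abundant rows. On simulated counts of 14792 genes for 6.0 mg/kg-day against control, edgeR recovered 68 of 100 genes changed 2-fold and 20 of 100 changed 1.5-fold. It called 8 of 14592 unchanged genes. The simulated counts were drawn independently for each gene and library and held no libraries that stood apart. They therefore do not give the rate of false calls in the measured data. Gene coordinates came from GENCODE M21 (20992 rows matched by name, 95%), and 21 rows with dates as names were not renamed. Promoters are RefSeq's (GRCm38.p6). Some genes that the rule names are not reported here.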

Additional observations from a re-analysis of the deposited data

Results flagged for a closer look

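In 250 groups of 4 mice (the reported genes and shares, treated and control mice apart), 17 had 1 mouse far from the other 3 for the spread of its group. Chance flags about 1 in 20 groups. Of the 11 flags among treated mice, 4 were high values of library 22. These were Cyp1a1 at 147 CPM, Top2a at 106 CPM, Ccna2 at 30.6 CPM and Lck at 87.7 CPM.

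Library 23 was high for Insig1 at 901 CPM and for the share of glucuronosyltransferases at 0.95% of all counts, and low for Orm2 at 18.3 CPM and Mogat1 at 3.69 CPM, which stayed above the control mice. Library 21 was high for Igf1 at 466 CPM and Slc1a2 at 46.5 CPM, though both stayed below the control mice, and library 24 was high for Por at 1213 CPM. Among control mice, library 3 was high for Cyp3a11 at 8371 CPM and Rbl2 at 70 CPM and low for the aldo-keto reductase share at 0.272%. Control library 1 was high for Cdc20 at 0.494 CPM and Hmgcs1 at 489 CPM, and control library 4 for Serpina6 at 603 CPM.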

How the results depend on the processing

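For 6.0 mg/kg-day against control, a fit of the 8 libraries alone gave 996 risen and 730 fallen genes, a term for the libraries that stood apart 2800 and 2839, and their removal 2699 and 2529, against 1707 and 1698. Leaving out single libraries gave 1263 to 2149 risen and 1083 to 2504 fallen genes, the lowest without library 22 and the highest without library 23. Between 6.0 and 3.0 mg/kg-day, 157 genes were higher and 161 lower: DESeq2 gave 355 and 303, the term 700 and 700, removal of the libraries apart 689 and 787, the 8 libraries alone 0 and 0 (1575 genes at an unadjusted p under 0.05), and single omissions 52 to 401 and 58 to 568, with 52 and 58 without library 17. Without the 10 most abundant rows the share differences were 1.49 percentage points for P450 and -0.839 for plasma carriers. The cause of these movements was not tested. No called value changed sign in these alternatives. The median log2 fold change of all genes for 6.0 against control lay between -0.02 and 0.01 in these settings, single omissions not included. No paired analysis was run because the labels give no replicate numbers shared by the groups. The libraries that stood apart were the third of each group by library number. The term for them was the only block by position that was fitted. Genes under 1 CPM were called least often.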

Other observations

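Several gene groups not described above had few called members or went both ways at 6.0 mg/kg-day. Over all tested genes 11.2% rose and 11.2% fell, and the counts below are to be read beside these shares. Of 26 genes of the pentose phosphate pathway and nucleotide synthesis 5 rose and 1 fell (median 0.15), and of 22 genes of ER stress and ATF4 signalling 3 rose and 2 fell (median 0.09), the risen ones numbering 1 without library 22, 5 without control library 2 and 6 without library 23. Respiratory chain genes rose in 7 of 89 cases and mitochondrial ribosomal protein genes in 5 of 80, with none fallen in either. Without the libraries that stood apart these counts were 29 and 28, and in a fit of the 8 libraries alone 1 and 0. Translation initiation factor genes rose in 9 of 58 cases (18 without the libraries that stood apart, 19 with a term for them and 4 with the 8 libraries alone) and fell in 2, and collagen genes rose in 3 of 27 and fell in 2. Membrane transporters of the ABC class rose in 6 of 34 cases and fell in 7 (13 without library 23), and organic ion transporters of the Slc22 family rose in 2 of 15 and fell in 5 (3 without library 21 or control library 1). Apolipoprotein and lipoprotein assembly genes rose in 2 of 17 cases and fell in 5, but their summed share of all counts was lower in every treated mouse, at 1.56 ± 0.0544% in treated mice and 2.16 ± 0.13% in control mice (SD, n = 4 each; exact permutation p = 0.0286, adjusted 0.0324).

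Among 11 genes of fetal liver and bile duct 1, Ly6d, rose, with a log2 fold change of 4.99 and levels of 4.91, 21.6, 10.2 and 5.78 CPM in treated mice, against 0.346, 0.562, 0 and 0.343 CPM in control mice. Without library 22 its log2 fold change was 4.38. In the interferon list the 1 riser was Ifi27l2b, at 6.15, 11.3, 7.03 and 8.98 CPM in treated mice, against 0.543, 0.169, 0.596 and 0.4 CPM in control mice (log2 fold change 4.29, adjusted p = 1.31e-08). Snord49a, a small nucleolar RNA, was among the most uneven genes: it had 196, 201, 6.51 and 33.8 CPM in treated mice, against 6.57, 14.6, 19 and 14.9 CPM in control mice. Its 2 high treated mice were libraries 21 and 22, and library 23, which stood apart from its group, was as low as the lowest control mouse.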
